A study of Homo sapiens with 24 samples.

Results

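The collagens and the enzymes that crosslink, cleave and protect them were examined in 2 ER-negative breast cancer cell lines. The gene table was searched by symbol for collagen chains (COL, without COL17A1), matrix metalloproteinases (MMP), tissue inhibitors of metalloproteinases (TIMP), ADAMTS proteases, lysyl oxidases (LOX, LOXL) and lysyl hydroxylases (PLOD). The search returned 96 of 59609 gene rows, made up of 43 collagens, 22 MMPs, 19 ADAMTS proteases, 5 lysyl oxidases, 4 TIMPs and 3 lysyl hydroxylases. The search used symbols alone, and was set with earlier results of these data known.

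Collagens are triple helices of 3 chains, assembled in the endoplasmic reticulum, where lysyl hydroxylases modify lysines of the chains. After secretion, lysyl oxidases turn such lysines into aldehydes that crosslink the fibrils. MMPs and ADAMTS proteases cut matrix proteins, membrane-type MMPs act at the cell surface, and TIMPs bind and inhibit these proteases. In breast tumours most fibrillar collagen is made by stromal fibroblasts, and carcinoma cells contribute basement membrane chains and remodelling enzymes.

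Of the lines, MDA-MB-231 is mesenchymal in character and MDA-MB-453 luminal, and both are labelled wild-type. Each line was grown with vehicle (DMSO), abemaciclib (a CDK4 and CDK6 inhibitor, 500 nM), fulvestrant (a degrader of the oestrogen receptor, 5 nM) or both drugs (combination) for 5 days. MDA-MB-231 was kept in RPMI-1640 and MDA-MB-453 in DMEM, so the line and its medium cannot be told apart. Each of the 8 groups held 3 libraries of 3′ RNA-seq, described by the study as biological replicates of an experiment done once, so the p-values measure the spread within that experiment. A monoculture holds no stroma, and a transcript level is not a level of secreted matrix.

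The 24 libraries held 2873558 to 4158762 counts. Levels are given as counts scaled for library size (CPM, with TMM factors). They are compared between groups, for single genes or for sums over a list of genes. The summed mesenchymal markers VIM, CD44, ZEB1, AXL and CAV1 were at 0 in MDA-MB-453 under DMSO, where the MDA-MB-231 libraries ranged from 2408 to 2798 CPM. With abemaciclib the sum was 3011 to 3255 CPM in MDA-MB-231. CAV1 (log2 fold change 1.05 ± 0.09 SE, edgeR adjusted p = 3.82e-12) and VIM (0.29 ± 0.08, adjusted p = 0.00384) were higher there. ZEB1 (0.17 ± 0.17), CD44 (0.07 ± 0.09) and AXL (-0.04 ± 0.09) were not called. The luminal marker ERBB2 was also higher (0.67 ± 0.23, edgeR adjusted p = 0.0191), and GATA3 and FOXA1 were not called. With abemaciclib in MDA-MB-453, ERBB2 (0.91 ± 0.09, edgeR adjusted p = 1.00e-11) and GATA3 (0.35 ± 0.08, adjusted p = 0.000552) were higher. The luminal markers FOXA1 and SPDEF were not called there. Of the luminal markers, GATA3 averaged 826 ± 35.4 CPM (SD, n = 3) in MDA-MB-453 under DMSO and 6.33 ± 2.09 CPM in MDA-MB-231, and FOXA1 averaged 196 ± 22.1 and 3.44 ± 1.99 CPM. The 6 fibroblast markers did not sum to over 0.788 CPM in any library, and DCN, PDGFRA, THY1 and POSTN were at 0 in all 8 groups. The endothelial markers (PECAM1, VWF, CDH5) summed to 0 to 0.576 CPM with DMSO and 0.836 to 3.99 CPM with abemaciclib in MDA-MB-231. The leukocyte list (PTPRC, CD68, CD14) summed there to 3.57 to 4.32 CPM with DMSO and 6.97 to 16.3 CPM with abemaciclib. CD68 held 40 and 108 counts of these groups, PTPRC 0 and 1, and CD14 none. CD68 was called higher (log2 fold change 1.38 ± 0.48, edgeR adjusted p = 0.0236). The part of these marker lists, the mesenchymal one included, in the results was not tested. With abemaciclib the mitochondrial share of the counts was 12.2% ± 1.05 (SD, n = 3) against 8.83% ± 0.213 in MDA-MB-231, and 23.8% ± 1.91 against 15.2% ± 0.650 in MDA-MB-453. When library totals left out mitochondrial genes, no call on a matrix gene was lost in any comparison.

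Of the 96 genes, 28 had no count in any of the 24 libraries and a further 36 had 1 to 99 counts in all libraries together. The filter on low counts left 33 genes to test, 28 for MDA-MB-231 and 12 for MDA-MB-453, of which 7 passed in both lines. The genes without a count included the gelatinase MMP9, the matrilysin MMP7 and the lysyl oxidase LOXL4. The collagenase MMP1 had 46 counts and the stromelysin MMP3 had 65, all of them in MDA-MB-231, and the gelatinase MMP2 had 4 in the 2 lines together. Several chains were counted without the usual partners of their helix. COL1A2, which joins COL1A1 in type I collagen, had 1 count in all libraries, and COL3A1 had 5. COL6A3, the third chain of the common type VI collagen, had no count, which allows up to 0.293 CPM (3 counts over the group) in MDA-MB-231 under DMSO. Of the type IV chains, COL4A1 and COL4A2 had 405 and 1768 counts over the 12 MDA-MB-231 libraries and 0 and 40 in MDA-MB-453, whereas COL4A5 and COL4A6 had 8 and 0 in MDA-MB-231 and 651 and 52 in MDA-MB-453.

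The type IV chains lie in head-to-head pairs, which share the sequence between their starts. Promoter sequences from RefSeq (GRCh38.p14) were found for 22 of the 33 tested genes. The starts used for them are those of RefSeq. GENCODE v44 starts the COL4A2 gene at 110305812 and the PLOD2 gene, on the minus strand, at 146163725. The stretches below are shown because most counts of the 2 type IV pairs came from different lines, because COL6A2 and its neighbour COL6A1 both rose with abemaciclib, and because PLOD2 fell with it in MDA-MB-453. Capitals mark the GC box GGGCGG, the CCAAT box, the TATA box TATAAA and the hypoxia response element core ACGTG, each read on both strands. The hypoxia core overlaps its own reverse complement in CACGTG, and the other motifs shared no base in these stretches.

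The first stretch, at chr13:110307158-110307283, holds all 126 bases between the RefSeq starts of COL4A1 (minus strand) and COL4A2 (plus strand). It is read from COL4A2 towards COL4A1. It has 1 GC box and 1 CCAAT box.
COL4A1: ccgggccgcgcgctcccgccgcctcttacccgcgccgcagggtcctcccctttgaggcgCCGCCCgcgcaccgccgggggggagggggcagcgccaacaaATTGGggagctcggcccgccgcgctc

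The other stretches hold the 250 bases before each start. That of COL4A5 lies at chrX:108439588-108439837 on the plus strand and has 2 CCAAT boxes and no GC box, and the 300-base RefSeq windows of COL4A5 and COL4A6 share 121 bases.
COL4A5: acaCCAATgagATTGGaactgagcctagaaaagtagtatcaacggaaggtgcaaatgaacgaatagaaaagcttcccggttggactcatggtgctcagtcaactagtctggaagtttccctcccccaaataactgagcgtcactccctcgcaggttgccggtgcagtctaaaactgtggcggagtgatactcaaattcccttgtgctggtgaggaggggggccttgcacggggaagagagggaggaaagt

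COL6A2 lies next to COL6A1 on chromosome 21, and its stretch, at chr21:46097862-46098111 on the plus strand, has 4 GC boxes and a TATA box.
COL6A2: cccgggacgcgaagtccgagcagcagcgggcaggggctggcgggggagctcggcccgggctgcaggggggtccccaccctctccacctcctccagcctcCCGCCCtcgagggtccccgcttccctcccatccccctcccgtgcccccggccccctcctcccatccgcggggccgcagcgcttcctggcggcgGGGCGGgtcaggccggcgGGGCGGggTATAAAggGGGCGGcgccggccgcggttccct

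PLOD2 reads from the minus strand, at chr3:146161185-146161434, with 1 GC box, 1 CCAAT box and 2 hypoxia response cores.
PLOD2: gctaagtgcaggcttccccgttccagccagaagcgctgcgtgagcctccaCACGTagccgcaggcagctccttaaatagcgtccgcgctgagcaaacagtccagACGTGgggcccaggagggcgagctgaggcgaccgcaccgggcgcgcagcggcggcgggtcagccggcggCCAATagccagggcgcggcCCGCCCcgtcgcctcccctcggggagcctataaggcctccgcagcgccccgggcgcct

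Among all 35116 RefSeq promoter windows cut to these 250 bases, 42.6% held a GC box, 32.0% a CCAAT box, 10.7% a TATA box and 18.5% a hypoxia response core. Over 126 bases, the shares were 34.6% for the GC box and 21.1% for the CCAAT box. The 27 windows of tested genes came from 22 genes, so that some genes were counted more than once. Of these windows, 20 held a GC box, 10 a CCAAT box, 3 a TATA box and 11 a hypoxia response core over 250 bases. The AP-1 site TGANTCA was found in none of the 27 and in 6.57% of all windows. A match is a string of letters, and binding was not measured.

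The 2 lines differed first in which matrix genes they expressed. Under DMSO the levels of all 96 genes summed to 754 ± 20.4 CPM (SD, n = 3) in MDA-MB-231 and to 325 ± 11.8 CPM in MDA-MB-453. The summed lysyl oxidases were 62.4 ± 11.0 CPM against 1.92 ± 1.51 CPM, the TIMPs 240 ± 22.9 against 45.7 ± 5.69 CPM and the collagens 218 ± 24.8 against 63.1 ± 5.16 CPM. The lysyl hydroxylases, at 127 ± 1.95 and 120 ± 8.87 CPM, and the MMPs, at 72.9 ± 4.04 and 64.2 ± 9.08 CPM, had sums of like size in the lines. The heat map of group means shows the blocks of genes that were at or near 0 in 1 line.

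**Figure D1:**
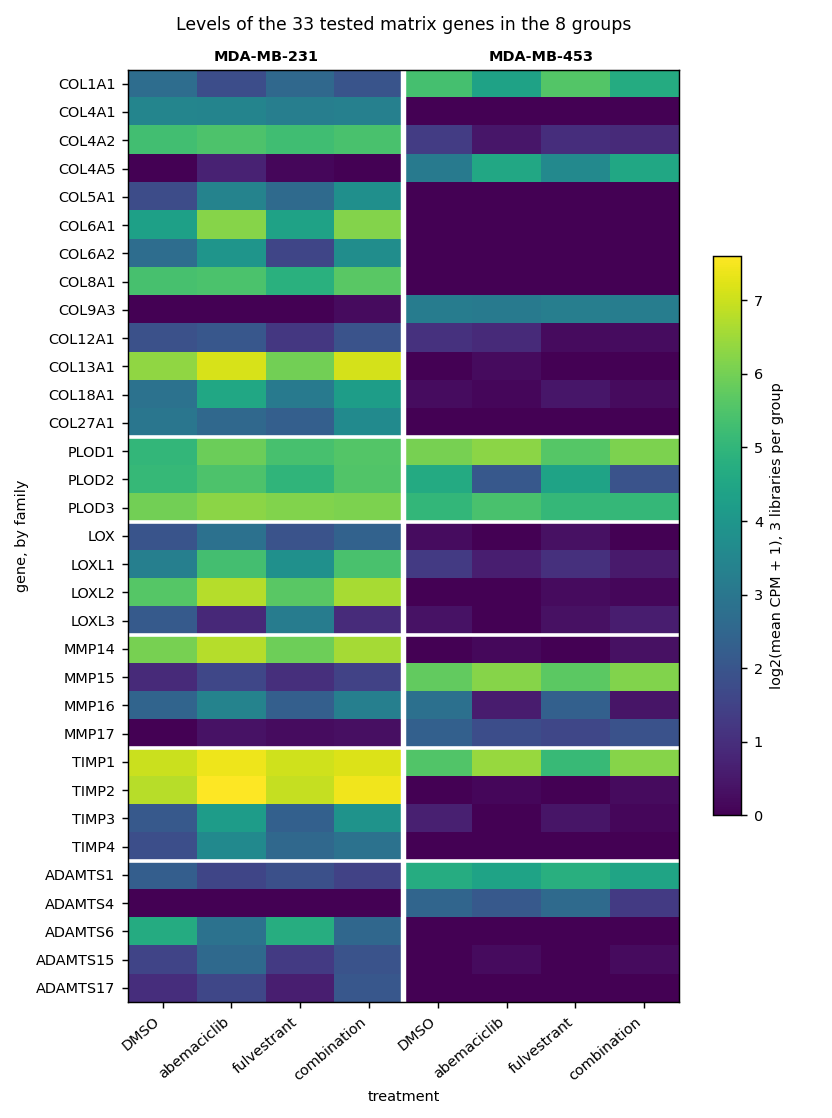
Mean level of the 33 tested genes (rows, by family) in the 8 groups (columns), as log2(mean CPM + 1) of 3 libraries. Read along a row, most collagens, lysyl oxidases and TIMPs are near 0 in MDA-MB-453, and COL4A5, COL9A3 and ADAMTS4 are near 0 in MDA-MB-231.

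In the model of all 24 libraries, 30 of the 33 genes differed between the lines under DMSO (edgeR quasi-likelihood test, Benjamini-Hochberg adjusted p below 0.05), with 8 above and 22 below their MDA-MB-231 level in MDA-MB-453. The same test called 69.8% of all 12750 genes, 34.3% higher and 35.6% lower. Only 7 of the 33 genes passed the filter in both lines, so that most were tested because of their level in 1 line, and these counts describe the genes that passed. With the DMSO libraries alone 23 genes were tested and 21 called, and 9 of the 30 called genes (LOXL3, TIMP4, LOX, COL27A1, COL5A1, ADAMTS15, MMP17, ADAMTS17 and TIMP3) were too low to be tested. PLOD2 (-0.44 ± 0.22), COL12A1 (-1.23 ± 0.77) and MMP16 (0.42 ± 0.47) were not called, although PLOD2 passed with DESeq2 (-0.49, adjusted p = 0.0243) and in edgeR without MDA-MB-453 DMSO replicate 2 (-0.62, adjusted p = 0.0278).

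TIMP2, an inhibitor that also takes part in activating MMP2, had 101, 110 and 117 CPM in the 3 MDA-MB-231 DMSO libraries and no count in MDA-MB-453 under DMSO, and was thus at least 380-fold lower there (the 1118 counts set against 3 counts over the group). COL13A1, a transmembrane collagen, had 64.3, 95.6 and 78.0 CPM and then no count, at least a 277-fold difference. MMP14, the membrane-type enzyme that activates MMP2 and cuts collagen itself, had 62.5, 61.6 and 70.1 CPM and no count, at least a 225-fold difference. These 3 genes were far above 0 in every MDA-MB-231 library, and the groups did not overlap.

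LOXL2, a lysyl oxidase that acts on basement membrane collagen, had 51.5, 52.1 and 38.3 CPM in MDA-MB-231 and no count in MDA-MB-453, at least a 165-fold difference. ADAMTS6, a secreted protease, had 23.5, 22.5 and 27.1 CPM and no count, at least an 84.7-fold difference. COL8A1, COL6A1, COL4A1, COL27A1, COL6A2, TIMP4, COL5A1, ADAMTS15 and ADAMTS17 were also without a count in MDA-MB-453 under DMSO, with lower bounds from 3.40-fold (ADAMTS17) to 142-fold (COL8A1). COL4A2 was lower 25.1-fold, LOXL1 6.12-fold, TIMP1 2.76-fold and PLOD3 1.96-fold. TIMP3 was lower 5.78-fold, but its 6 MDA-MB-453 counts all lay in DMSO replicate 3, without which the fitted log2 difference moved from -2.46 to -6.56 against a group at 0. For LOXL3, LOX and COL18A1 the MDA-MB-453 libraries held only 3, 2 and 2 counts, and the ratios were 11.9 (95% counting interval 3.75 to 60.5), 15.3 (3.89 to 132) and 32.7 (8.68 to 276).

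The 8 genes higher in MDA-MB-453 came from 4 families. PLOD1, the lysyl hydroxylase that modifies helical lysines, had 69.5, 59.7 and 63.9 CPM there against 30.1, 36.8 and 27.4 CPM in MDA-MB-231, a log2 difference of 1.03 ± 0.17 (SE, edgeR adjusted p = 6.82e-07). All 3 MDA-MB-453 libraries lay above the MDA-MB-231 libraries. MMP15, another membrane-type enzyme, was 60.8-fold higher, COL1A1 7.24-fold and ADAMTS1 6.61-fold. The MMP15 ratio set 559 counts against 9, and its log2 difference of 5.87 moved between 5.29 and 7.35 over the alternatives. COL9A3, COL4A5, ADAMTS4 and MMP17 had no count in MDA-MB-231 under DMSO and were at least 27.8-fold, 25.8-fold, 15.7-fold and 14.0-fold higher.

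In MDA-MB-231 the summed level of the matrix genes was higher with abemaciclib. The sum of all 96 genes was 1238 ± 47.4 CPM with abemaciclib against 754 ± 20.4 CPM (SD, n = 3), and the lowest abemaciclib library (1185 CPM) exceeded the highest DMSO library (772 CPM). Of the 28 genes tested, 14 were higher and 2 lower (edgeR adjusted p below 0.05). Of all 11314 genes tested, 16.9% were higher and 16.9% were lower. The median log2 fold change of the 28 genes was 0.82, against -0.000529 for all genes. As 11 of the 28 genes had fewer than 3 DMSO libraries above the filter's 2.86 CPM, these counts describe the genes that passed. The plot of summed levels shows each family in the 8 groups.

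**Figure D2:**
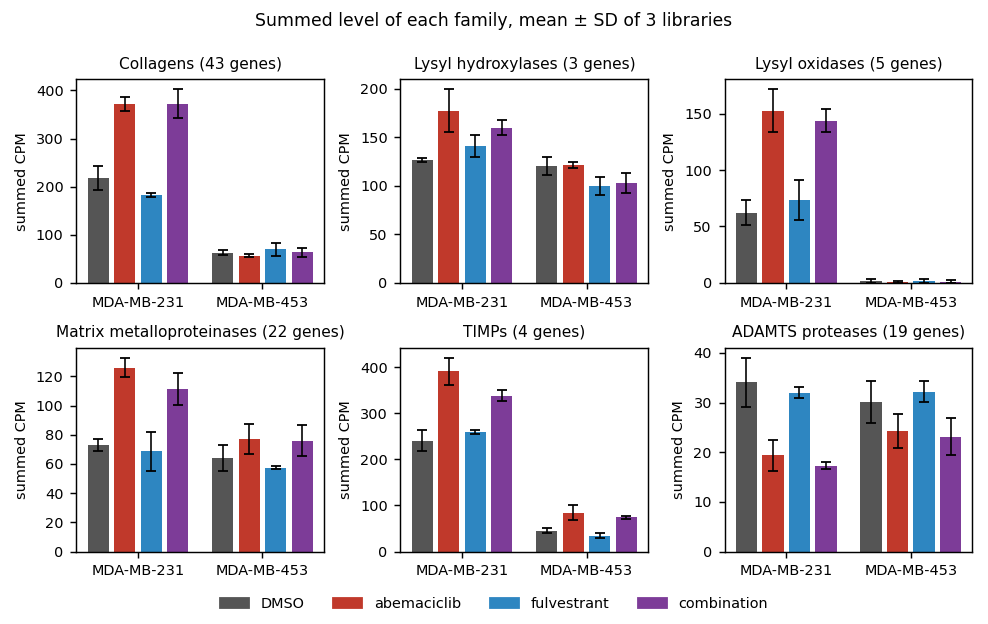
Summed CPM of each family (bars, mean ± SD of 3 libraries) in the 4 treatments of each line. In MDA-MB-231 every family but the ADAMTS proteases had a higher mean with abemaciclib and with the combination than with DMSO, and the lysyl oxidases were near 0 in MDA-MB-453.

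Of the collagens, 5 of 11 rose and none fell, where 16.9% of all genes rose and 16.9% fell. COL6A1, which with COL6A2 builds the beaded filaments around cells, had 22.6, 16.4 and 17.4 CPM with DMSO and 66.6, 68.8 and 83.6 CPM with abemaciclib (log2 fold change 1.96 ± 0.19 SE, edgeR adjusted p = 2.84e-11). COL6A1 lies at chr21:45981770-46005050 on the plus strand of GRCh38. COL6A2, its neighbour (46098112 to 46132848), had 5.06, 5.47 and 6.18 CPM with DMSO and 19.8, 15.1 and 8.52 CPM with abemaciclib (1.37 ± 0.35, edgeR adjusted p = 0.00215). COL6A1 and COL6A2 both rose without overlap between the groups.

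COL5A1, a fibrillar chain that regulates fibril diameter (chr9:134641803-134844843, plus strand), had 2.68, 3.74 and 0.883 CPM with DMSO and 14.5, 6.82 and 7.45 CPM with abemaciclib (log2 fold change 1.96 ± 0.45, edgeR adjusted p = 0.000619). COL5A1 was above the filter's cutoff in 1 DMSO library. Its place in the test, and in the count of collagens that rose, thus rests in part on the treated libraries. COL13A1 (chr10:69801880-69964275, plus strand) had 64.3, 95.6 and 78.0 CPM and then 147, 135 and 139 CPM (0.83 ± 0.13, adjusted p = 1.78e-06). COL18A1, the basement membrane chain from which endostatin is cut, averaged 6.25 ± 2.62 CPM and 22.3 ± 4.77 CPM (1.83 ± 0.31, adjusted p = 6.54e-06). In each of these genes the lowest abemaciclib library stood above the highest DMSO library. COL18A1 shares 1563 exonic bases with SLC19A1 on the opposite strand, and the strand setting of the counts was not stated.

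The basement membrane pair of the printed COL4A1 promoter did not pass the test. COL4A1 had 11.6, 10.1 and 8.54 CPM with DMSO and 7.80, 11.0 and 10.6 CPM with abemaciclib, a log2 fold change of -0.04 ± 0.33. COL4A2 averaged 38.4 ± 0.442 CPM (SD, n = 3) and 43.96 ± 4.43 CPM, a log2 fold change of 0.20 ± 0.16. The groups overlapped in COL4A1 and not in COL4A2. COL8A1, a chain of short network collagens, had a log2 fold change of 0.08 ± 0.16, and COL12A1, COL27A1 and COL1A1 had 0.21 ± 0.65, -0.46 ± 0.47 and -1.13 ± 0.53.

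**Figure D3:**
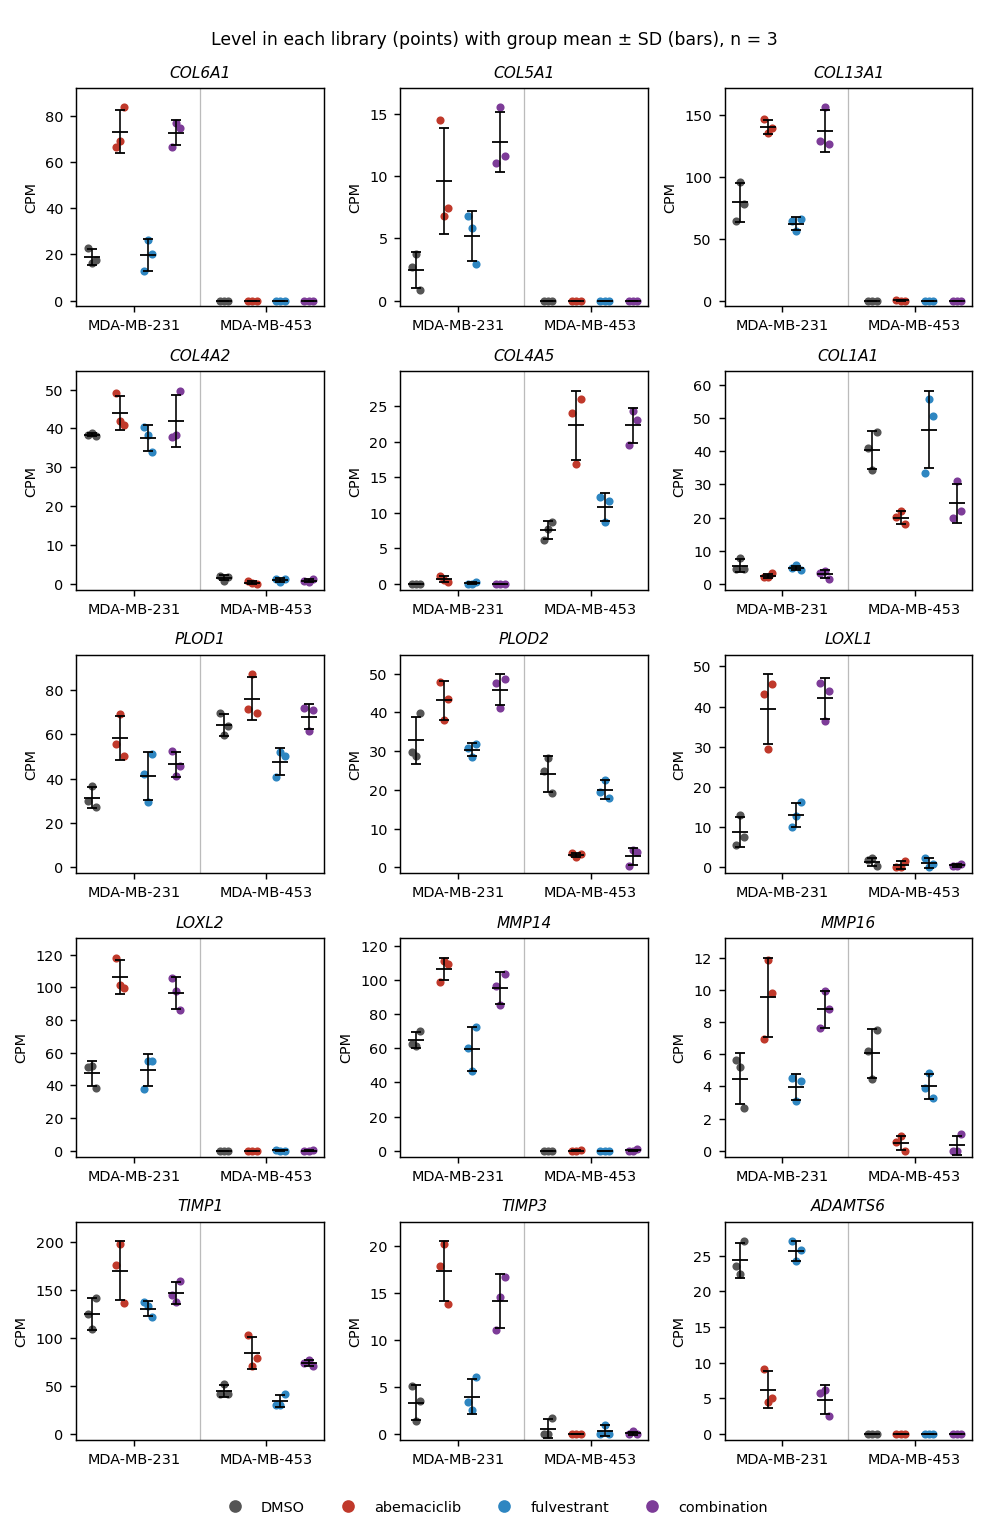
Level of 15 genes in each of the 24 libraries (points, CPM) with the group mean ± SD (bars, n = 3), coloured by treatment. In MDA-MB-231 the abemaciclib and combination points of COL6A1, LOXL1, LOXL2 and TIMP3 lie above all DMSO and fulvestrant points and those of ADAMTS6 below them, whereas in MDA-MB-453 PLOD2 and MMP16 fall and COL4A5 rises.

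Of the 4 lysyl oxidases tested 2 rose and 1 fell, and of the 3 lysyl hydroxylases 1 rose. The shares of all genes were 16.9% higher and 16.9% lower. LOXL1, a lysyl oxidase also needed for elastic fibres (chr15:73925989-73952137, plus strand), had 5.65, 13.0 and 7.65 CPM with DMSO and 43.2, 29.4 and 45.5 CPM with abemaciclib (log2 fold change 2.17 ± 0.25, edgeR adjusted p = 2.18e-09). LOXL2 had 51.5, 52.1 and 38.3 CPM and then 118, 101 and 99.3 CPM (1.17 ± 0.15, adjusted p = 2.20e-08). PLOD1 (chr1:11934205-11975538, plus strand) had 30.1, 36.8 and 27.4 CPM and then 55.7, 69.1 and 50.04 CPM (0.89 ± 0.18, adjusted p = 0.000117). The groups of these 3 genes did not overlap.

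LOXL3 went the other way, with 4.46, 2.30 and 3.53 CPM under DMSO and 1.95, 0.593 and 0 CPM under abemaciclib (log2 fold change -1.98 ± 0.73, edgeR adjusted p = 0.0324). The LOXL3 call was lost without DMSO replicate 1, DMSO replicate 3, abemaciclib replicate 2 or abemaciclib replicate 3, where the adjusted p lay between 0.0656 and 0.161. Its exons overlap those of HTRA2 by 936 bases on the opposite strand, and HTRA2 had a log2 fold change of -0.04 ± 0.23. LOX, PLOD2 and PLOD3 were not called, at log2 fold changes of 1.06 ± 0.57, 0.40 ± 0.17 and 0.28 ± 0.14. These 3 calls were gained without a single library, LOX without DMSO replicate 2 (2.02, edgeR adjusted p = 0.0250), PLOD2 without DMSO replicate 3 (0.57, 0.0217) and PLOD3 without abemaciclib replicate 3 (0.42, 0.0240). PLOD2 also passed with library totals that left out mitochondrial genes (0.45, 0.0370).

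The 4 TIMPs and the 2 MMPs tested were higher with abemaciclib, where 16.9% of all genes were. Of the 4 ADAMTS proteases none rose and 1 fell, where 16.9% of all genes fell. TIMP4 was above the filter's cutoff in 1 DMSO library and TIMP3 and MMP16 in 2. Their place in the test, and with it the count of TIMPs and MMPs, thus rests in part on the treated libraries. TIMP3, an inhibitor that binds to the matrix (chr22:32801705-32863041, plus strand), had 5.06, 1.44 and 3.53 CPM with DMSO and 17.8, 20.2 and 13.8 CPM with abemaciclib (log2 fold change 2.36 ± 0.38, edgeR adjusted p = 2.75e-06). TIMP2 had 101, 110 and 117 CPM and then 194, 188 and 197 CPM (0.82 ± 0.11, adjusted p = 3.54e-08). In both genes the groups were clearly apart. TIMP4 averaged 2.54 ± 1.39 CPM and 11.3 ± 1.30 CPM (2.14 ± 0.45, adjusted p = 0.000196). TIMP1 averaged 125 ± 16.4 CPM and 169.9 ± 30.8 CPM (0.45 ± 0.12, adjusted p = 0.00346), with overlapping groups. Without abemaciclib replicate 2 the TIMP1 change was 0.33 and no longer passed (adjusted p = 0.0571). TIMP2 shares 224 exonic bases with CEP295NL on its own strand and LOXL2 120 with ENTPD4, so that reads there cannot be assigned to 1 gene.

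MMP14 had 62.5, 61.6 and 70.1 CPM with DMSO and 98.9, 111 and 109 CPM with abemaciclib (log2 fold change 0.72 ± 0.14, edgeR adjusted p = 4.52e-05). MMP16, a further membrane-type enzyme (chr8:88032011-88328025, minus strand), had 5.65, 5.18 and 2.65 CPM and then 6.97, 11.9 and 9.85 CPM (1.08 ± 0.40, adjusted p = 0.0306). The groups did not overlap in either gene. The MMP16 call was lost without DMSO replicate 3, abemaciclib replicate 2 or abemaciclib replicate 3, at adjusted p of 0.147, 0.136 and 0.0693.

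Besides LOXL3, ADAMTS6 fell. It had 23.5, 22.5 and 27.1 CPM with DMSO and 9.20, 4.45 and 5.06 CPM with abemaciclib (log2 fold change -1.95 ± 0.29, edgeR adjusted p = 7.57e-07), and the groups were far apart. The gene lies at chr5:65148738-65481920 on the minus strand. ADAMTS1, ADAMTS15 and ADAMTS17 were not called, at -0.90 ± 0.67, 1.37 ± 0.60 and 1.09 ± 0.78. ADAMTS15 passed when the fit held the abemaciclib and DMSO libraries alone (1.38, edgeR adjusted p = 0.0463).

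**Figure D4:**
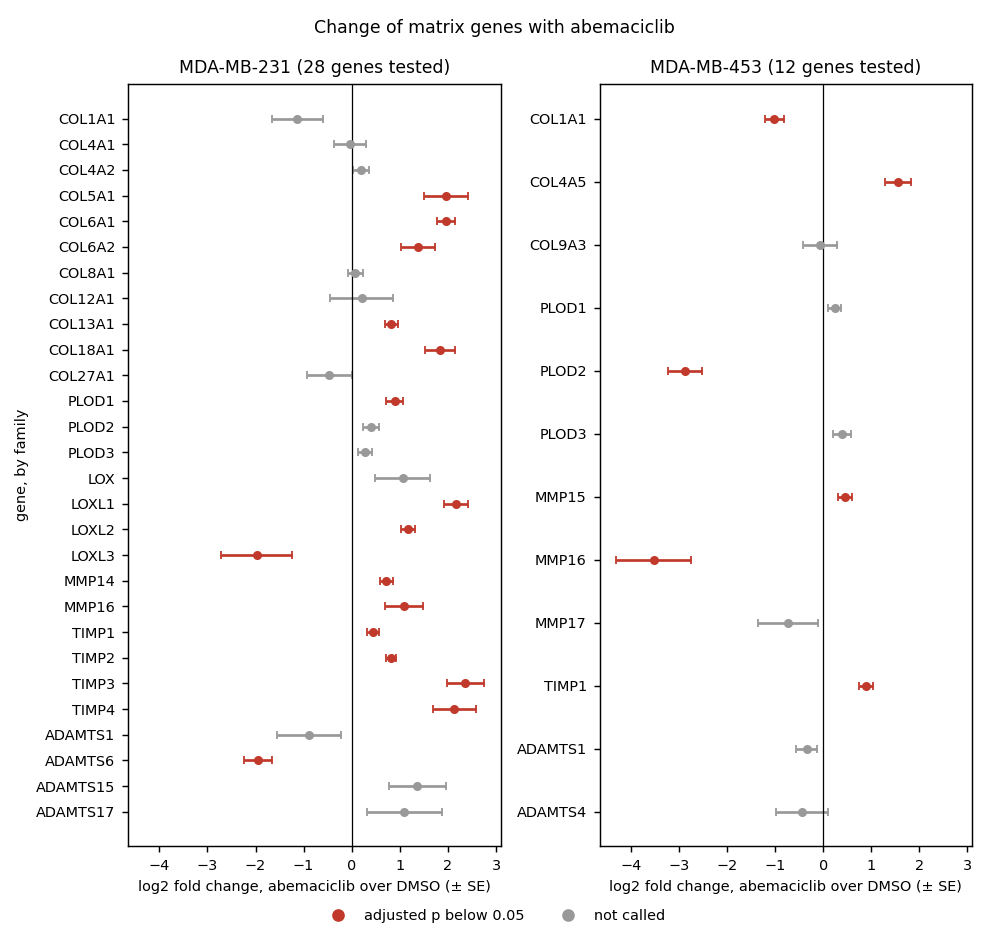
Log2 fold change of abemaciclib over DMSO (points, with SE as bars) for each tested gene, 28 for MDA-MB-231 and 12 for MDA-MB-453. Genes with an adjusted p below 0.05 are red, and in MDA-MB-231 14 of the 16 lie to the right of 0, whereas in MDA-MB-453 3 lie on each side.

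In MDA-MB-453 the called matrix genes went in both directions, in shares near those of all genes. The sum of all 96 genes was 325 ± 11.8 CPM with DMSO and 364 ± 20.7 CPM with abemaciclib (SD, n = 3). Of the 12 genes tested, 3 were higher and 3 lower (25% each way, edgeR adjusted p below 0.05), near the 16.6% and 19.4% of all 11080 genes. The median log2 fold change was -0.20, against -0.00188 for all genes. MMP17 alone of the 12 had fewer than 3 DMSO libraries above the filter's 2.75 CPM.

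PLOD2 modifies the ends of the collagen chains, and its promoter is among those printed. It had 24.9, 28.3 and 19.1 CPM with DMSO and 3.74, 2.71 and 3.34 CPM with abemaciclib (log2 fold change -2.87 ± 0.36, edgeR adjusted p = 6.70e-09). It had the smallest adjusted p of the 12 genes, and the groups lay far apart. The other lysyl hydroxylases were not called, PLOD1 at 0.24 ± 0.14 and PLOD3 at 0.39 ± 0.19, although PLOD3 passed without abemaciclib replicate 2 (0.53, adjusted p = 0.0419).

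MMP16 had 6.21, 4.44 and 7.51 CPM with DMSO and 0.534, 0.902 and 0 CPM with abemaciclib (log2 fold change -3.53 ± 0.77, edgeR adjusted p = 0.000254), which is 63 counts against 5. COL1A1, the main chain of type I collagen (chr17:50184101-50201632, minus strand), had 40.8, 34.4 and 45.9 CPM and then 20.0, 21.9 and 18.0 CPM (-1.02 ± 0.20, adjusted p = 8.25e-05). Neither gene had overlapping groups.

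COL4A5, a basement membrane chain (chrX:108439838-108697545, plus strand), had 6.21, 7.77 and 8.67 CPM with DMSO and 24.0, 16.8 and 26.1 CPM with abemaciclib (log2 fold change 1.55 ± 0.27, edgeR adjusted p = 9.23e-06). Its head-to-head partner COL4A6 was too low to be tested, at 5 counts with DMSO, 24 with abemaciclib, 9 with fulvestrant and 14 with the combination. TIMP1 (chrX:47582408-47586789, plus strand) had 41.7, 52.2 and 41.3 CPM and then 103, 70.9 and 78.9 CPM (0.90 ± 0.15, adjusted p = 4.08e-06). The groups did not overlap in COL4A5 or TIMP1. MMP15 had 45.6, 61.9 and 52.6 CPM and then 83.1, 73.0 and 64.5 CPM (0.46 ± 0.14, adjusted p = 0.00954). The MMP15 call was lost without DMSO replicate 1 (0.36, adjusted p = 0.0848) or abemaciclib replicate 1 (0.37, adjusted p = 0.0694). COL9A3, ADAMTS1, ADAMTS4 and MMP17 were not called, at -0.06 ± 0.36, -0.35 ± 0.22, -0.45 ± 0.54 and -0.73 ± 0.62.

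The abemaciclib effect was then compared between the lines. Of 33 genes, 6 differed in the model of all libraries, all lower in MDA-MB-453 than in MDA-MB-231 (edgeR adjusted p below 0.05), whereas 20.7% of all 12750 genes differed and 13.0% were lower. The 6 are 18.2% of the 33. Of the 33 genes, 10 had no count in MDA-MB-453 with either treatment, COL6A1, COL6A2, COL5A1, LOXL2 and TIMP4 among them, and 2 (ADAMTS4 and COL9A3) had none in MDA-MB-231, so that these 12 could not be compared. PLOD2 differed by -3.26 ± 0.37 (adjusted p = 1.69e-09), with log2 fold changes of -2.87 in MDA-MB-453 (called) and 0.40 in MDA-MB-231 (not called). MMP16 differed by -4.60 ± 0.80 (adjusted p = 1.90e-05) and was called in both lines, in opposite directions. The MMP16 rise in MDA-MB-231 (edgeR adjusted p = 0.0306) lost its call without DMSO replicate 3, abemaciclib replicate 2 or abemaciclib replicate 3. LOXL1 differed by -3.62 ± 0.93 (adjusted p = 0.00326), on 15 and 5 counts in MDA-MB-453. The 5 counts lay in abemaciclib replicate 3, and the LOXL1 difference was -7.61 (adjusted p = 0.000123) without it and -3.14 (adjusted p = 0.0473) without MDA-MB-453 DMSO replicate 2.

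TIMP3, COL4A2 and PLOD1 rested on less. TIMP3 differed by -6.48 ± 1.83 (edgeR adjusted p = 0.00767), with 6 counts under DMSO and none under abemaciclib in MDA-MB-453, so that this fitted value is no bound. Without MDA-MB-453 DMSO replicate 3, which held the 6 counts, the difference was -2.42 with an adjusted p of 1.00. COL4A2 differed by -2.06 ± 0.71 (adjusted p = 0.0318), with 16 and 4 counts in MDA-MB-453. The COL4A2 call was lost without the filter on low counts (adjusted p = 0.0724) and without MDA-MB-453 DMSO replicate 1, DMSO replicate 3, abemaciclib replicate 2 or abemaciclib replicate 3 (0.102, 0.0662, 0.0742 and 0.106). PLOD1 differed by -0.65 ± 0.23 (adjusted p = 0.0407) and lost its call without MDA-MB-231 DMSO replicate 3, MDA-MB-231 abemaciclib replicate 2, MDA-MB-453 DMSO replicate 1 or MDA-MB-453 abemaciclib replicate 3 (0.0767, 0.171, 0.0603 and 0.0541). TIMP1, higher in both lines, differed by 0.46 ± 0.20 (adjusted p = 0.0964), and this passed without MDA-MB-231 abemaciclib replicate 2 (0.60, adjusted p = 0.0347) or MDA-MB-453 DMSO replicate 2 (0.59, adjusted p = 0.0466).

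Fulvestrant changed no matrix gene past the threshold. In MDA-MB-231, 0 of 28 genes were called (edgeR), as were 0% of all genes, and DESeq2 also called 0 of the 28. At an unadjusted p below 0.05 there were 7 of the 28. The share of all genes at that looser threshold was not taken, so nothing is concluded from this count. COL6A2 had the largest shift, from 5.06, 5.47 and 6.18 CPM to 2.82, 1.95 and 1.16 CPM (log2 fold change -1.48 ± 0.45, adjusted p = 0.409), and COL8A1 had the smallest adjusted p, at -0.58 ± 0.17 (adjusted p = 0.341). In both genes, picked as the extremes of the 28 and not called, the fulvestrant libraries lay below the DMSO libraries. For MDA-MB-453 neither edgeR nor DESeq2 called any of the 12 genes (0 each), against 1.41% of all genes by edgeR. Of the 12, 2 had an unadjusted p below 0.05, again with no share of all genes taken. These were PLOD1, at -0.42 ± 0.14 (adjusted p = 0.128), and TIMP1, at -0.40 ± 0.16 (adjusted p = 0.222). Without fulvestrant replicate 3, TIMP1 was called (-0.54, adjusted p = 0.0403).

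The combination was set against DMSO and against abemaciclib. In MDA-MB-231, 13 of 28 genes were higher and 2 lower than with DMSO, and 17.0% and 18.3% of all genes were (edgeR adjusted p below 0.05). In MDA-MB-453, 3 of 12 were higher and 4 lower, and 17.6% and 20.0% of all genes were. Since both contrasts use the same DMSO libraries, the values of abemaciclib and the combination are given side by side with no measure of likeness. COL6A1 had log2 fold changes of 1.96 and 1.95, LOXL1 2.17 and 2.26, TIMP3 2.36 and 2.07 and ADAMTS6 -1.95 and -2.31 in MDA-MB-231. PLOD2 had -2.87 and -2.98, MMP16 -3.53 and -3.84, COL4A5 1.55 and 1.57 and COL1A1 -1.02 and -0.71 in MDA-MB-453.

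The calls of the combination and of abemaciclib against DMSO differed for 4 results. In MDA-MB-231, PLOD2 passed with the combination (0.49 ± 0.17, edgeR adjusted p = 0.0219), and MMP16 (0.97 ± 0.40, adjusted p = 0.0519) and TIMP1 (0.24 ± 0.12, adjusted p = 0.124) did not. The PLOD2 call was lost without DMSO replicates 1 or 2 or combination replicates 1 or 3, with adjusted p from 0.0676 to 0.111. MMP16 was called without DMSO replicate 1 (1.16, adjusted p = 0.0475) and by DESeq2 (0.99, adjusted p = 0.0401), and TIMP1 without DMSO replicate 3 (0.36, adjusted p = 0.0407). COL27A1 (0.72 ± 0.44, adjusted p = 0.205) was called without DMSO replicate 2 (1.35, adjusted p = 0.0403). In MDA-MB-453, ADAMTS4, a protease that cuts the proteoglycan aggrecan, passed, from 5.33, 4.16 and 4.33 CPM with DMSO to 0.700, 2.63 and 1.03 CPM (-1.61 ± 0.60, adjusted p = 0.0291). The ADAMTS4 call was lost without DMSO replicates 1 or 3 or combination replicates 1 or 3, with adjusted p from 0.0520 to 0.117. Tested directly against abemaciclib, the combination changed 0 of 28 genes in MDA-MB-231 and 0 of 12 in MDA-MB-453 by edgeR and by DESeq2, while 0.0265% and 2.46% of all genes were called. At an unadjusted p below 0.05 there were 2 and 0, with no share of all genes taken.

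**Figure D5:**
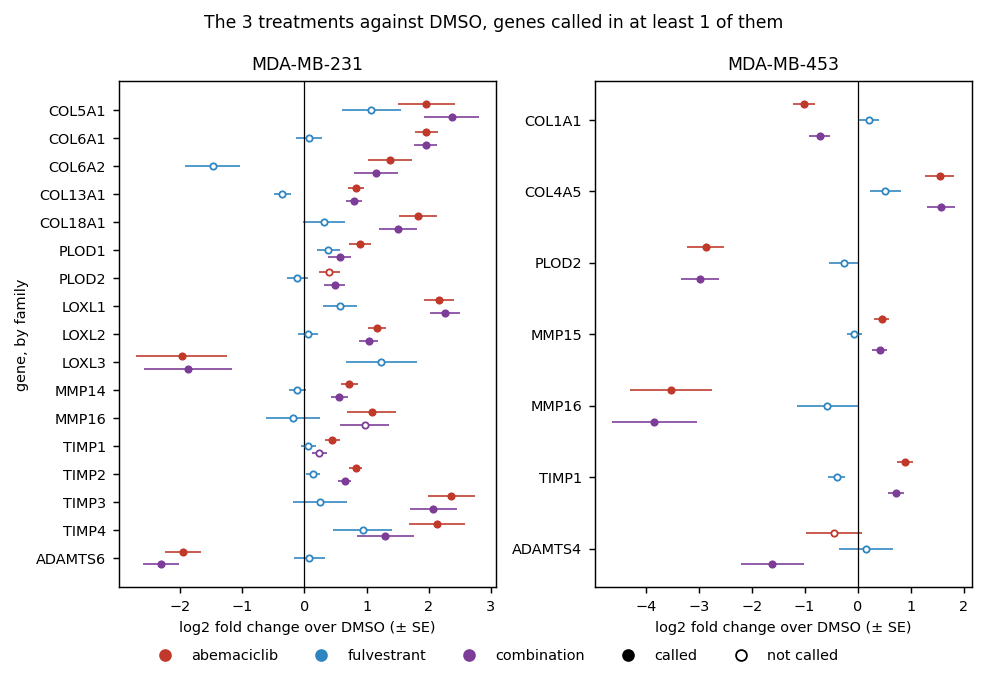
Log2 fold change over DMSO (points, with SE as bars) with abemaciclib, fulvestrant and the combination for the genes called in at least 1 contrast, 17 for MDA-MB-231 and 7 for MDA-MB-453. Filled points passed an adjusted p below 0.05, and all fulvestrant points are open.

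A list of 53 further genes of collagen folding, matrix proteolysis, collagen receptors and matrix glycoproteins was read in the same fits. With abemaciclib in MDA-MB-231, 17 of 39 tested were higher and 2 lower (43.6% and 5.13%), where 16.9% of all genes were higher and 16.9% lower. The median log2 fold change was 0.46, against -0.000529 for all genes. This list too was chosen with earlier results known. FN1, the adhesive glycoprotein fibronectin, had the largest rise, from 5.72 ± 4.08 to 41.6 ± 4.73 CPM (SD, n = 3, log2 fold change 2.85 ± 0.29 SE, edgeR adjusted p = 1.20e-10). TNC, the glycoprotein tenascin-C, rose from 3.69 ± 2.37 to 14.3 ± 6.30 CPM (1.95 ± 0.42, adjusted p = 0.000273) and PLAT, the tissue plasminogen activator, from 7.13 ± 1.44 to 26.2 ± 0.610 CPM (1.88 ± 0.26, adjusted p = 1.59e-07). PLAUR, the urokinase receptor, fell from 274 ± 13.8 to 160 ± 10.5 CPM (-0.78 ± 0.11, adjusted p = 1.45e-07).

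In MDA-MB-453, 5 of 26 genes of that list were higher and 5 lower with abemaciclib (19.2% each way), near the 16.6% and 19.4% of all genes. The median log2 fold change was 0.20, against -0.00188 for all genes. MIA3, which exports collagen from the endoplasmic reticulum, rose from 55.2 ± 10.3 to 126 ± 31.9 CPM (log2 fold change 1.18 ± 0.14, edgeR adjusted p = 4.71e-09). ITGA2 and ITGB1, the chains of a collagen-binding integrin, rose by 0.86 ± 0.23 (adjusted p = 0.00254) and 0.91 ± 0.24 (adjusted p = 0.00243). MRC2, a receptor that takes up collagen, fell from 8.79 ± 1.81 to 0.868 ± 0.467 CPM (-3.26 ± 0.59, adjusted p = 1.38e-05), and COLGALT1, which adds galactose to hydroxylysine, from 103 ± 3.24 to 47.9 ± 5.54 CPM (-1.11 ± 0.13, adjusted p = 2.29e-09). TNC was lower, at -1.54 ± 0.57 (adjusted p = 0.0302), but lost its call when DMSO replicates 1 or 2 or any abemaciclib replicate was left out, with adjusted p from 0.0515 to 0.149. The effect on TNC differed between the lines by -3.47 ± 0.68 (adjusted p = 0.000116) and that on MRC2 by -4.42 ± 0.59 (adjusted p = 7.79e-08).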

How the data were processed

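Reads of 24 forward 3′ RNA-seq libraries (QuantSeq, single-end) were trimmed with BBDuk, aligned to hg38 with STAR and counted per GENCODE gene with featureCounts by the authors, and the deposited values are raw gene counts. The strand setting and the treatment of multi-mapped or duplicate reads were not given in the sources used here. Intervals and floors cover counting error only. The table held 59609 named rows and 1 unnamed row with 0 counts.

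The analysis used edgeR 4.0.16 under R 4.3.3. After filterByExpr (minimum count 10), libraries were scaled by TMM, and quasi-likelihood models were fitted to the 12 libraries of each line, or to all 24 for contrasts between lines. Tests were 2-sided, and a call needed a p below 0.05 after Benjamini-Hochberg adjustment over every gene in the comparison. A gene with no count in a group was set at a floor of 3 counts over the group. Alternatives were DESeq2 1.42.0, its size factors in edgeR, totals without mitochondrial genes, no filter, fits of the compared groups alone, a replicate block and leaving out each library. The fits were tested on simulated data. Pairs of replicates differed by more than counting noise (chi-square per degree of freedom 2.64 to 8.65 in 24 pairs).

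The members and gene lists were chosen with earlier results of these data known. Every tested member was named. Values per library were given, in each family and line, for the called member with the largest abemaciclib change among those averaging at least 5 CPM in a group, and for the largest line difference among those averaging at least 10 CPM. The list of further genes was named by its 3 largest changes each way at 5 CPM or more. A marker gene and a gene of that list are not reported here, and the latter stays in the counts of that list. Other values per library, COL4A6, MMP1, MMP2, MMP3, MMP7, MMP9, LOXL4, COL1A2, COL3A1 and COL6A3 were chosen after their values were seen. Whether groups overlapped was read in genes picked from these same libraries, with no share of all genes taken. It describes their values and adds no test. Gene positions and exon overlaps came from GENCODE v44 on GRCh38, the build of hg38.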

Additional observations from a re-analysis of the deposited data

Results flagged for a closer look

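The abemaciclib effect on 6 genes differed between the lines by the interaction test of the 24-library model, and each was lower in MDA-MB-453. They are 18.2% of the 33 genes in that model, where 20.7% of all genes differed, and 12 of the 33 had no count in 1 of the lines with either DMSO or abemaciclib. The log2 differences were -0.65 for PLOD1, -3.26 for PLOD2, -4.60 for MMP16, -2.06 for COL4A2, -3.62 for LOXL1 and -6.48 for TIMP3. PLOD2 and MMP16 kept the call under every alternative run, with differences from -3.49 to -3.12 and from -5.36 to -4.19. LOXL1 kept it too, but moved between -7.61 (without MDA-MB-453 abemaciclib replicate 3) and -3.05, with an adjusted p of up to 0.0473. The TIMP3 value fell to -2.42 (edgeR adjusted p = 1.00) without MDA-MB-453 DMSO replicate 3. With 3 libraries in a group, no search for single outlying libraries was made.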

How the results depend on the processing

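Of 80 calls on member genes over the 10 comparisons, 58 were called under all alternatives run, 13 were lost under at least 1 that tested the gene, and a further 9, all between the lines, were left untested by the filter when the fit held the DMSO libraries alone. No called direction reversed. The 13 lost calls are named in the report or here: with the combination in MDA-MB-231, LOXL3 without DMSO replicates 1 or 3 or combination replicates 1 or 2 (edgeR adjusted p up to 0.119), PLOD1 without DMSO replicate 3 or combination replicate 1 (up to 0.0762) and TIMP4 without DMSO replicates 1 or 2 or combination replicate 3 (up to 0.207), and in MDA-MB-453, MMP15 without DMSO replicates 1 or 3 or combination replicate 2 (up to 0.170).

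Leaving out 1 library gave 30 to 32 called members between the lines, 13 to 17 with abemaciclib and 12 to 14 with the combination in MDA-MB-231, 5 to 7 and 6 to 8 in MDA-MB-453, 0 to 1 with fulvestrant in MDA-MB-453, 4 to 7 for the difference between lines, and 0 in the 3 other contrasts. Only TIMP1 moved the fulvestrant count in MDA-MB-453 from 0 to 1.

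Between the lines, DESeq2 called 31 members, no filter 34 of 68 and the compared groups alone 21 of 23. Totals without mitochondrial genes moved the median of all genes with the combination in MDA-MB-453 from 0.00 to 0.12.

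Replicate numbers did not pair the libraries: 0 of 18 same-numbered pairs in each line correlated above 0.1 in their deviations from the group means. With the replicate number as a block, 30 members were called between the lines, 16 and 15 in MDA-MB-231 with abemaciclib and the combination, 6 and 7 in MDA-MB-453, and 5 for the difference between lines, where PLOD1 missed the threshold (adjusted p = 0.0585). In the 4 contrasts of fulvestrant with DMSO and of the combination with abemaciclib, the block left 0 called members.

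At about 3 counts per CPM, the filter on low counts left 63 of the 96 members untested, of which 28 had no count in any library.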
